A study of Mus musculus with 12 samples.

Results

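Type I interferon signals through a receptor pair and the kinases JAK1 and TYK2 to a complex that contains STAT2 and IRF9, binds interferon-stimulated response elements and turns on a set of antiviral genes. Several products of that set, including IRF1, IRF7 and STAT2, are themselves parts of the signalling chain, so the set is known to keep a low tonic level in unstimulated cells and to rise in concert after exposure to interferon. Skeletal muscle satellite cells, the PAX7+ stem cells of muscle, rest in quiescence under the basal lamina of the fibre and enter the cell cycle after injury or isolation. The genes described here were 9 interferon-stimulated genes, *Irf1*, *Irf7*, *Stat2*, *Isg15*, *Ifit1*, *Ifit2*, *Ifit3*, *Oasl2* and *Rsad2*, taken by their symbols from the 55401 genes of a bulk RNA-seq count table, and all 9 were among the 25771 genes with enough counts for a test.

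Cells positive for the Pax7-ZsGreen reporter were sorted from hind limb muscle of adult mice that were homozygous for the floxed *Cxcr4* allele (CXCR4 FL/FL) and had received tamoxifen on 5 days at 80 mg/kg. *Cxcr4* WT mice lacked cre, and *Cxcr4* KO mice carried Pax7-creERT2, which acts only in cells that express *Pax7*, so that the mice differed in the cre allele as well as in *Cxcr4*. Freshly sorted cells (quiescent, 4 WT and 4 KO libraries) were compared with sorted cells cultured overnight (activated, 2 WT and 2 KO libraries). The labels do not say whether the libraries of a group came from separate animals, so that p-values measure the spread between these libraries, which may be technical.

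Totals per library were 12775593 to 23717013 counts in quiescent cells and 3172164 to 5427280 counts in activated cells, in which *CT010467.1*, a gene of ribosomal RNA, held 11.5 to 40.3% of the counts, against 0.295 to 0.807% in quiescent cells. The summed level of 9 satellite cell markers was 5359 to 9711 CPM (counts per 1000000 counts after TMM scaling of library sizes) in quiescent and 3064 to 4338 CPM in activated libraries, while 8 muscle fibre markers summed to 280 to 997 CPM and 7142 to 17128 CPM. Markers of other cells were present as well, with 10 hematopoietic markers at 110 to 531 CPM in quiescent and 42.0 to 83.5 CPM in activated libraries (up to 3 of the 10 at 0 there), 9 endothelial markers at 293 to 1334 CPM and 116 to 779 CPM, 8 fibroadipogenic markers at 456 to 2208 CPM and 268 to 721 CPM, and 6 smooth muscle and pericyte markers at 443 to 1731 CPM and 170 to 321 CPM. The 4 Y chromosome genes summed to 358 to 660 CPM in quiescent and 0 to 2.51 CPM in activated libraries, and *Xist* stood at 1.2 to 7.17 CPM and 451 to 817 CPM. State and the sex of the mice therefore cannot be told apart in any comparison of activated with quiescent cells. The targeted gene, *Cxcr4*, was at 80.5 ± 25.3 CPM in WT and at 17.1 ± 3.54 CPM in KO quiescent cells (SD, n = 4 each; adjusted p = 0.00477, edgeR), and at 23.9 ± 13.3 CPM and 9.54 ± 5.86 CPM in activated cells (SD, n = 2 each; adjusted p = 0.381).

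The sequences upstream of the genes are shown first because the set is known to be switched through an element in such sequences. The core of the interferon-stimulated response element, GAAA followed by any 2 bases and GAAA on either strand, occurred in 3.44% of 32851 promoter windows of the RefSeq annotation of GRCm38.p6, each running from 250 bases before to 50 bases after a transcription start. All 9 genes matched windows, 11 in total, and 5 of the genes held the core, against 3.99% of all 27025 genes with a window. In the lines that follow, each read 5′ to 3′ on the strand of its gene, capitals mark the core, which reads TTTC NN TTTC where it lies on the opposite strand, and overlapping copies run together.
Isg15: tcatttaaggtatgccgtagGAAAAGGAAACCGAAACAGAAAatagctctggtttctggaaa
Ifit1: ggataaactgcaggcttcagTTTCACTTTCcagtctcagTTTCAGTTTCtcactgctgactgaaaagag
Ifit3: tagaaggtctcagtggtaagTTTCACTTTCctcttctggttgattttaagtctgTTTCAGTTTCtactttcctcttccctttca
Rsad2: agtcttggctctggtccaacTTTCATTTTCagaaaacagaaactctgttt
Stat2: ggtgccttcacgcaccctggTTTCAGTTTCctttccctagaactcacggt
These stretches lie at chr4:156200855-156200916 on the minus strand for *Isg15*, chr19:34640765-34640833 on the plus strand for *Ifit1*, chr19:34583353-34583436 on the plus strand for *Ifit3*, chr12:26456543-26456592 on the minus strand for *Rsad2* and chr10:128270256-128270305 on the plus strand for *Stat2*. *Isg15* held 3 overlapping copies, which begin 78, 72 and 66 bases before the start, *Ifit1* and *Ifit3* held 2 each, and *Rsad2* and *Stat2* held 1 each. The windows of *Irf7*, *Oasl2*, *Irf1* and *Ifit2* did not hold these letters. With 1 base between the GAAA repeats in place of 2, the motif occurred in 3.17% of windows, for 3.7% of genes, and in those of *Isg15* and *Stat2*. Other variants of the core, and sites outside the windows, were not searched.

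The gamma-activated site, TTCNNNGAA, an element known from the response to interferon gamma, occurred in 8.3% of windows and in those of *Irf1* and *Ifit2*. Capitals mark it in the next lines, on the strand of each gene.
Irf1: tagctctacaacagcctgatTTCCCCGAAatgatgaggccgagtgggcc
Ifit2: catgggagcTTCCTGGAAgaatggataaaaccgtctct
The *Irf1* stretch lies at chr11:53769904-53769952 and that of *Ifit2* at chr19:34550444-34550481, both on the plus strand. *Ifit2*, *Ifit3* and *Ifit1* are neighbours on chromosome 19, where they lie with *Ifit3b*, *Ifit1bl1* and *Ifit1bl2* within 99.3 kb, from 34550694 to 34650009 (GRCm38, GENCODE M21). The start regions of *Ifit1* and *Ifit1bl2* point away from each other and share both copies of the core. The other genes lie apart, *Isg15* on chromosome 4 from 156199424 to 156200818, *Oasl2* on chromosome 5 from 114896936 to 114912234, *Irf7* on chromosome 7 from 141262706 to 141266481, *Stat2* on chromosome 10 from 128270559 to 128292849, *Irf1* on chromosome 11 from 53770014 to 53778374 and *Rsad2* on chromosome 12 from 26442746 to 26456452.

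In activated cells, the transcription factor genes of the set were at a small fraction of their quiescent level. *Irf1* encodes a factor that both interferon types induce. Its level was 407, 373, 223 and 168 CPM in WT quiescent libraries 1 to 4 and 483, 249.9, 318 and 124 CPM in KO quiescent libraries 1 to 4, and it was 29.1 and 17.5 CPM in the WT activated and 17.5 and 25.6 CPM in the KO activated libraries. The lowest quiescent library lay well above the highest activated one, while WT and KO were interleaved in both states. Activated against quiescent, *Irf1* fell by 3.63 on the log2 scale in WT (SE 0.51, adjusted p = 2.29e-05, edgeR quasi-likelihood test) and fell by 3.77 in KO (SE 0.52, adjusted p = 1.45e-05).

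*Irf7* encodes the factor that amplifies interferon alpha transcription. It had 46.1, 50.1, 36.0 and 35.0 CPM in WT quiescent and 95.6, 35.1, 50.9 and 36.2 CPM in KO quiescent libraries, against 6.37 and 2.19 CPM in WT activated and 5.39 and 5.70 CPM in KO activated libraries. KO quiescent library 1 stood apart from 7 quiescent libraries that lay close together, and all activated libraries were lower. The log2 fold change with activation was -3.14 in WT (SE 0.47, adjusted p = 4.31e-05, edgeR) and -3.29 in KO (SE 0.47, adjusted p = 2.11e-05). *Irf7* overlaps *Phrf1* on the opposite strand, and the sources used here do not say whether reads were counted by strand. *Phrf1* had 77.4 to 162 CPM in quiescent and 120 to 173 CPM in activated libraries.

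*Stat2* encodes the STAT that is used by type I but not by type II interferon. It stood at 181, 179, 199 and 142 CPM in WT quiescent and 334, 174, 166 and 149 CPM in KO quiescent libraries, and at 18.1 and 10.1 CPM in WT activated and 5.91 and 12.3 CPM in KO activated libraries. The 4 WT quiescent libraries spread little, and KO quiescent library 1 was the only one above 199 CPM. *Stat2* showed the steepest fall of the 9 genes in KO, with a log2 fold change of -4.49 (SE 0.44, adjusted p = 3.27e-07, edgeR), and fell by 3.59 in WT (SE 0.42, adjusted p = 2.4e-06).

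Among the effector genes, *Isg15*, *Oasl2* and *Ifit1* also passed the test in both genotypes. *Isg15* encodes a ubiquitin-like protein that is attached to other proteins. Its level was 48.4, 41.9, 28.3 and 30.5 CPM in WT quiescent, 83.8, 26.4, 46.9 and 18.7 CPM in KO quiescent, 12.4 and 2.63 CPM in WT activated and 3.08 and 2.97 CPM in KO activated libraries. The KO activated libraries held 12 and 13 counts of it, and the WT activated libraries 76 and 6, so that the activated WT mean rested on 1 library. *Isg15* fell by 2.17 on the log2 scale in WT (SE 0.56, adjusted p = 0.00582, edgeR) and by 3.86 in KO (SE 0.64, adjusted p = 0.000115). Without WT activated library 2 the WT value no longer passed (log2 fold change -1.59, adjusted p = 0.0943).

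*Oasl2* encodes a member of the oligoadenylate synthetase family. It had 36.4, 29.9, 24.3 and 18.5 CPM in WT quiescent and 57.4, 21.9, 34.7 and 15.3 CPM in KO quiescent libraries, and 2.78 and 2.19 CPM in WT activated and 5.39 and 8.44 CPM in KO activated libraries. In activated cells it was higher in both KO libraries than in both WT libraries, at 5 to 37 counts a library. It fell by 3.41 with activation in WT (SE 0.55, adjusted p = 0.0001, edgeR) and by 2.22 in KO (SE 0.48, adjusted p = 0.00142).

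*Ifit1* encodes a tetratricopeptide protein that binds viral RNA with an unmethylated cap. Its level was 61.7, 51.7, 22.5 and 24.9 CPM in WT quiescent, 91.3, 20.8, 37.5 and 18.8 CPM in KO quiescent, 15.0 and 9.63 CPM in WT activated and 9.76 and 8.44 CPM in KO activated libraries. The groups did not overlap, but the lowest quiescent libraries were close to the highest activated one. The fall passed in WT (-1.67, SE 0.58, adjusted p = 0.0347, edgeR) and KO (-2.21, SE 0.60, adjusted p = 0.00759). The WT call was lost without WT quiescent library 1 (-1.35, adjusted p = 0.0911), WT quiescent library 2 (-1.48, 0.0713), WT activated library 1 (-1.99, 0.113) or WT activated library 2 (-1.42, 0.207). The KO call was lost without KO activated library 1 (-2.31, adjusted p = 0.0616) or library 2 (-2.11, 0.0845), with fold changes close to the value from all libraries.

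The remaining effector genes did not pass in either genotype. *Rsad2* encodes viperin, a radical SAM enzyme that makes a chain-terminating nucleotide. It had 42.5, 37.3, 15.0 and 18.0 CPM in WT quiescent, 70.7, 9.09, 37.1 and 13.8 CPM in KO quiescent, 11.3 and 4.38 CPM in WT activated and 17.2 and 15.5 CPM in KO activated libraries, so that in KO the activated values lay inside the quiescent range. Its log2 fold change was -1.76 in WT (SE 0.68, adjusted p = 0.0557, edgeR) and -1.0 in KO (SE 0.63, adjusted p = 0.215). The WT value passed without WT quiescent library 3 (adjusted p = 0.0385) or 4 (0.0462) and without KO quiescent library 1 (0.0264), 2 (0.0308) or 4 (0.0364).

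*Ifit2* and *Ifit3* encode relatives of IFIT1 that form complexes with it. *Ifit2* had 51.1, 38.2, 17.1 and 21.5 CPM in WT quiescent, 34.7, 14.8, 37.5 and 18.1 CPM in KO quiescent, 15.0 and 14.4 CPM in WT activated and 15.2 and 10.5 CPM in KO activated libraries. In WT both activated values lay just below the lowest quiescent library, and in KO 1 of the 2 lay within the quiescent range. The log2 fold change was -1.11 in WT (SE 0.46, adjusted p = 0.0711, edgeR) and -1.04 in KO (SE 0.45, adjusted p = 0.0827). Its WT value passed without WT quiescent library 3 (adjusted p = 0.0341) and its KO value without KO quiescent library 2 (0.0447).

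*Ifit3* had 31.3, 27.5, 9.52 and 12.5 CPM in WT quiescent, 29.7, 12.8, 23.4 and 12.9 CPM in KO quiescent, 13.9 and 13.1 CPM in WT activated and 14.1 and 19.6 CPM in KO activated libraries. Quiescent and activated libraries overlapped in both genotypes. Its log2 fold change was -0.57 in WT (SE 0.47, adjusted p = 0.337, edgeR) and -0.22 in KO (SE 0.45, adjusted p = 0.704). The *Ifit3* transcript matched that of *Ifit3b* at 97.8% identity over 1700 of 1745 bases, so reads of the pair may be split or dropped in counting and the value of each is uncertain. *Ifit3b* itself was at 6.73 ± 3.95 CPM (SD, n = 4) in WT quiescent and 5.89 ± 0.905 CPM (SD, n = 2) in WT activated libraries, and did not pass (log2 fold change -0.17, adjusted p = 0.845, edgeR).

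**Figure D1:**
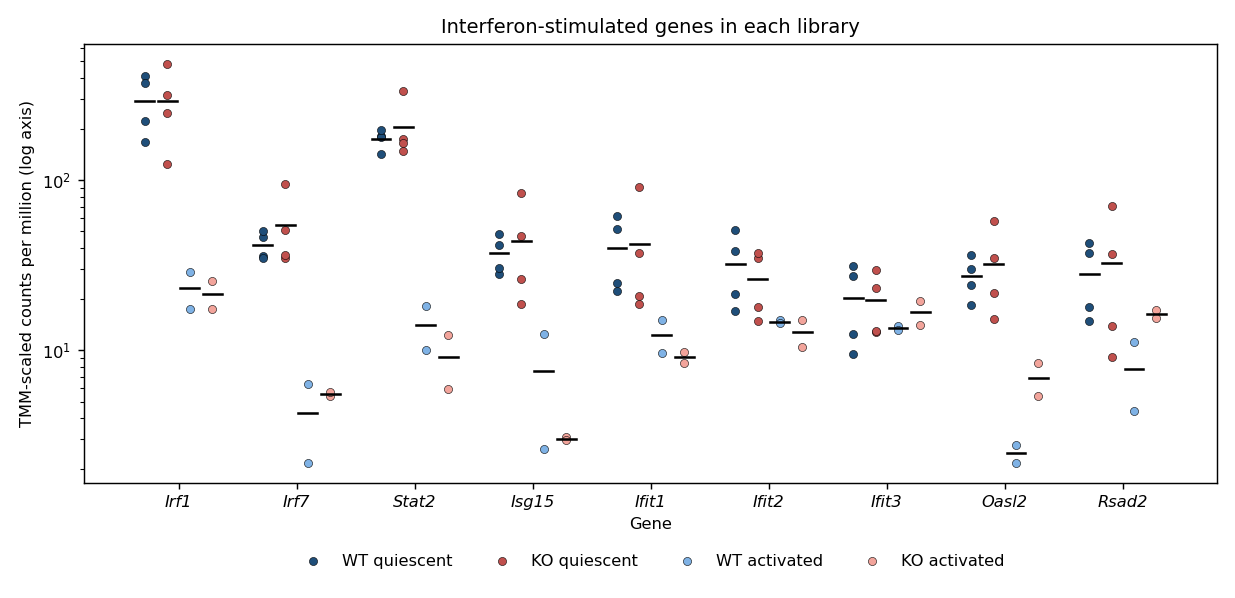
TMM-scaled CPM of the 9 genes (log axis) in each of the 12 libraries, with points for libraries, colours for groups and black bars for group means. *Irf1*, *Irf7* and *Stat2* show activated libraries far below all quiescent ones. For *Oasl2* the gap is smaller, from 8.44 CPM in the highest activated to 15.3 CPM in the lowest quiescent library, both KO. For *Ifit3* the activated libraries (13.1 to 19.6 CPM) sit within the quiescent range.

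In all, 6 of the 9 genes were called lower in WT and 6 in KO, where a call required an adjusted p under 0.05, a log2 fold change beyond 1 and a mean count over 10 in the libraries compared. The same rule called 16.5% of all tested genes lower in WT and 18.5% in KO. Every activated library lay below every quiescent library for 8 of the 9 genes in WT and for 6 in KO, against 38.4% and 36.1% of all genes tested. None of the 9 rose, while 9.65% and 11.1% of all genes were called higher. The median log2 fold change was -2.17 in WT and -2.22 in KO for the 9 genes, and -0.92 and -0.96 for all genes tested, so the scaled levels of most genes in the table were lower in activated cells. Without WT activated library 1 the WT medians were -3.57 and -1.47, and when genes under a mean count of 10 were dropped (18730 kept) the medians of all genes were -0.46 in WT and -0.49 in KO. With DESeq2's size factors these medians of all genes were -0.86 and -0.95, and 8 of the 9 genes lay below the median of all genes in either genotype under both scalings.

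By role, the 3 signalling genes had log2 fold changes of -3.14 to -3.63 in WT and -3.29 to -4.49 in KO, and the 6 effector genes ranged from -3.41 (*Oasl2*) to -0.57 (*Ifit3*) in WT and from -3.86 (*Isg15*) to -0.22 (*Ifit3*) in KO. The ranges of the roles overlapped, and the difference between roles was not tested. The genes with a response element core in the window printed above had WT log2 fold changes of -3.59 (*Stat2*), -2.17 (*Isg15*) and -1.67 (*Ifit1*), and *Rsad2* (-1.76) and *Ifit3* (-0.57), which also hold it, did not pass. The genes without this exact core in their windows had values of -3.63 (*Irf1*), -3.41 (*Oasl2*), -3.14 (*Irf7*) and -1.11 (*Ifit2*). In bulk RNA, fewer cells of a type that expresses these genes and less RNA per cell cannot be told apart.

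Per unit of exon length the order of the group means changed with state. Exon length was taken over all annotated transcripts of a gene together. For *Irf7*, with 13 transcripts, it came to 1 block of 3776 bases, the whole gene. *Isg15*, *Ifit1* and *Ifit3* have 1 transcript each. Levels per length of genes with many transcripts may thus be too low, and their ranks are uncertain. As CPM per kb of annotated exon (GENCODE M21), the WT quiescent order was *Irf1* (73.7 ± 29.0, SD, n = 4), *Isg15* (49.3 ± 12.6), *Stat2* (29.6 ± 4.01), *Ifit1* (15.1 ± 7.35), *Ifit3* (11.6 ± 6.19), *Irf7* (11.1 ± 1.98), *Ifit2* (8.14 ± 3.99), *Rsad2* (6.50 ± 3.18) and *Oasl2* (4.28 ± 1.21). The libraries of *Isg15* (37.4 to 64.1 CPM per kb) and *Stat2* (24.0 to 33.5) did not overlap, nor did those of *Stat2* and *Ifit1* (8.46 to 23.2), and every other neighbouring pair in this order overlapped. In WT activated cells *Isg15* led with 9.95 ± 9.16 CPM per kb (SD, n = 2), followed by *Ifit3* with 7.74 ± 0.304 and *Irf1* with 5.86 ± 2.06. That lead rested on WT activated library 1, where *Isg15* had 16.4 CPM per kb. In WT activated library 2 *Isg15* had 3.48 CPM per kb, below *Ifit3* (7.53) and *Irf1* (4.41). In KO activated cells *Ifit3* led with 9.67 ± 2.23, followed by *Irf1* with 5.41 ± 1.44 and *Isg15* with 4.00 ± 0.109. *Stat2*, just behind *Isg15* in quiescent cells of both genotypes, ranked below all 3 *Ifit* genes in activated cells. The order of the authors' FPKM, deposited as 1 value a group, was the same in all 4 groups, with *Irf1* at 71.8 and *Isg15* at 51.6 FPKM in WT quiescent cells as the authors' values. *Isg15* shares 95.2% identity over 482 bases with a transcript of *AC151275.1*, and *Irf1* overlaps *Gm17334* on the other strand (4.14 to 12.7 CPM in quiescent and 0.327 to 2.19 CPM in activated libraries).

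**Figure D2:**
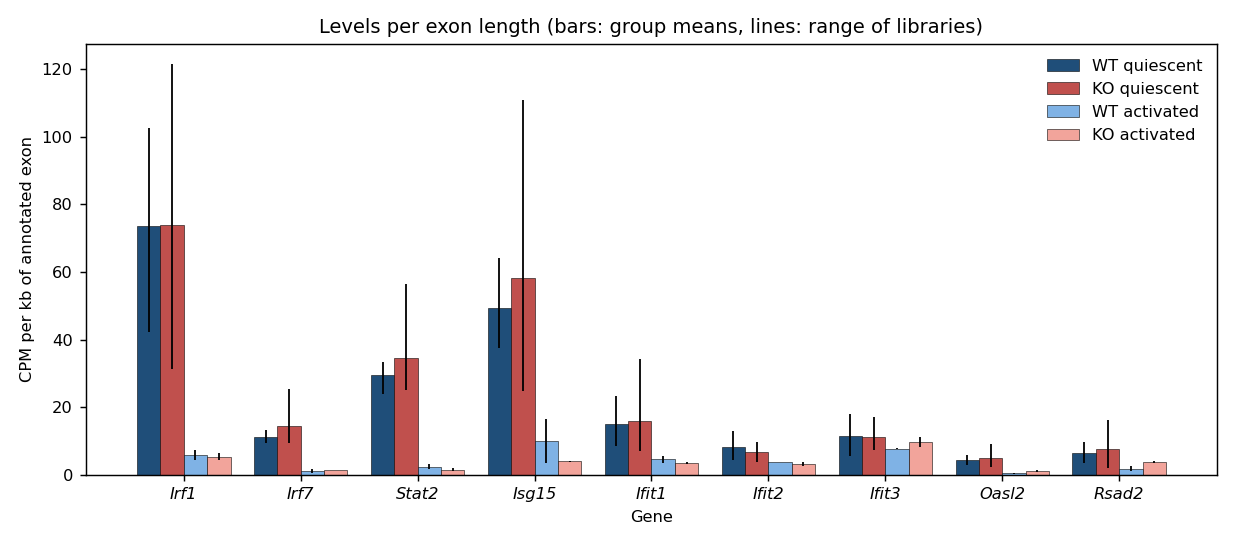
CPM per kb of annotated exon for the 9 genes, with bars for group means and lines from the lowest to the highest library (4 libraries a genotype in quiescent, 2 in activated cells). *Irf1*, *Isg15* and *Stat2* are the tallest quiescent bars in both genotypes, and *Ifit3* keeps the most similar level across the groups, at 7.74 to 11.6 CPM per kb on average.

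Deletion of *Cxcr4* was compared with WT in each state to ask whether the receptor bears on these genes. In quiescent cells none of the 9 was called, against 0.0155% of all genes tested in either direction, and the KO and WT libraries of all 9 overlapped, where 1.7% of all genes did not. The log2 fold changes ran from -0.28 for *Ifit2* (SE 0.34, 95% interval -0.98 to 0.42) to 0.38 for *Irf7* (SE 0.30, -0.24 to 1.00), with an adjusted p of 1 for each (edgeR) and none at an unadjusted p under 0.05, where 448 genes of the table were, and no setting run, DESeq2 among them, called any of the 9. The interval of *Rsad2* was the widest, from -0.77 to 1.2, and changes within such intervals were not detectable with these libraries. The values above 0 depended on KO quiescent library 1. Without it the log2 fold changes of *Irf7*, *Stat2*, *Isg15*, *Ifit1*, *Oasl2*, *Rsad2* and *Irf1* fell to -0.016, -0.090, -0.25, -0.62, -0.16, -0.46 and -0.32.

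In activated cells none of the 9 was called either, against 0.0504% of all genes, with 2 libraries a genotype. *Ifit3*, *Oasl2* and *Rsad2* were higher in both KO libraries than in both WT libraries, as were 15.2% of all genes tested. None was lower in both, a count without a baseline, because that share of all genes was not computed. *Oasl2* had a log2 fold change of 1.44 (SE 0.61, 95% interval 0.15 to 2.72, unadjusted p = 0.0300, adjusted p = 0.537, edgeR), and *Rsad2* one of 0.98 (SE 0.75, adjusted p = 0.813). *Isg15* had the opposite sign at -1.45 (SE 0.69, 95% interval -2.90 to 0.006, adjusted p = 0.595), a value that turned to 0.17 without WT activated library 1. The other values lay between -0.66 for *Stat2* (SE 0.44) and 0.32 for *Ifit3* (SE 0.54). In the table, 2158 genes had an unadjusted p under 0.05 in this comparison, and 1 of the 9, *Oasl2*, did. No other setting, DESeq2 among them, called any of the 9 genes here.

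The difference of the KO effect between the states, which is also the difference of the activation effect between genotypes, was called for none of the 9 genes and for 0% of all genes tested. The smallest adjusted p in the table was 0.0574, 1699 genes had an unadjusted p under 0.05, and DESeq2 called 45 genes and none of the 9. The estimates for the 9 genes ran from -1.68 for *Isg15* (SE 0.79, unadjusted p = 0.0468, adjusted p = 0.754, edgeR) to 1.19 for *Oasl2* (SE 0.70, adjusted p = 0.834). Those 2 genes carry the lowest counts in activated libraries together with *Irf7*. The comparisons share libraries, so their values are given side by side here and are not independent.

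**Figure D3:**
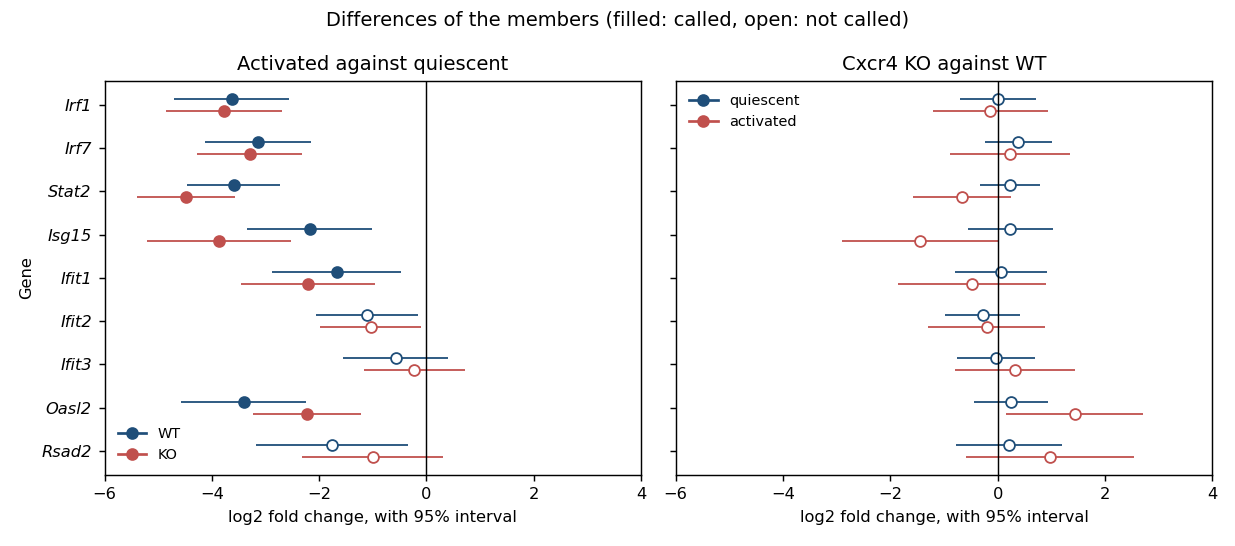
Log2 fold changes of the 9 genes with 95% intervals from edgeR, activated against quiescent in each genotype (left) and KO against WT in each state (right), with filled points for calls and open points for no call. On the left 6 genes are filled in each genotype, all below 0, and on the right none is, with intervals that include 0 except for *Oasl2* in activated cells (0.15 to 2.72).

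The 9 genes varied together between libraries of 1 group. After the group mean was subtracted from log2 CPM, the 36 pairs of genes had correlations over the 12 libraries from r = 0.14 (*Ifit2* and *Stat2*) to r = 0.97 (*Isg15* and *Irf7*), with a median of 0.79, and 34 pairs were above 0.5. These values describe libraries that share cells, depth and preparation within each point. Pairs of other genes were not computed, so the values do not set the 9 genes apart from other genes. The 2 activated libraries of a genotype deviate by equal amounts in opposite directions, so the 12 points are not independent. In the 8 quiescent libraries alone the range was 0.34 to 0.97. KO quiescent library 1 was on average 0.99 above its group mean on the log2 scale with all 9 genes above it, WT quiescent libraries 1 and 2 were 0.53 and 0.35 above with all 9 genes each, and KO quiescent library 3 was 0.27 above with 8 genes. WT quiescent libraries 3 and 4 were 0.44 and 0.45 below, and KO quiescent libraries 2 and 4 were 0.55 and 0.71 below, with at most 1 gene above the mean. The quiescent libraries of both genotypes thus held high and low libraries for nearly all 9 genes, and within KO the highest library had 7.78 times the *Rsad2* level of the lowest.

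Endothelial markers moved with the 9 genes. The summed CPM of *Pecam1*, *Cdh5*, *Kdr*, *Tek*, *Tie1*, *Cldn5*, *Esam*, *Egfl7* and *Emcn*, genes of the blood vessel lining, was 1252 and 1264 in WT quiescent libraries 1 and 2 and 1334 and 1288 in KO quiescent libraries 1 and 3, the 4 libraries above their group means. It was 533 and 622 in WT quiescent libraries 3 and 4 and 493 and 293 in KO quiescent libraries 2 and 4. In activated cells it was 779 in WT library 1 and 116 in WT library 2, and 123 and 401 in KO libraries 1 and 2, the same order as the mean of the 9 genes within each genotype. No endothelial marker was at 0 counts in any library. Over the 12 libraries, deviations of the log2 endothelial sum and of the mean of the 9 genes correlated at r = 0.85 (rho = 0.74), at r = 0.80 without the 2 libraries farthest from the median, and at r = 0.93 (rho = 0.83) over the 8 quiescent libraries. Each of the 9 endothelial genes correlated with that mean at r of 0.76 to 0.91.

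The other marker sums related to the mean of the 9 genes in several ways. Smooth muscle and pericyte markers had r = 0.82 over the 12 libraries (rho = 0.83, and r = 0.83 without the 2 farthest libraries) and fibroadipogenic markers r = 0.24 (rho = 0.26, and 0.02 without 2), and over the 8 quiescent libraries the fibroadipogenic value was 0.06, or 0.86 without 2 libraries, so that it rests on those. Hematopoietic markers ran the other way at r = -0.65 (rho = -0.71, and -0.61 without 2), as did satellite cell markers at r = -0.65 (rho = -0.59, and -0.46 without 2). Muscle fibre markers had r = -0.06 (rho = -0.01), which became -0.60 without 2 libraries, and 0.09 over the quiescent libraries, which became -0.86 without 2, and thus rests on those. KO quiescent library 4, with the most hematopoietic marker RNA (531 CPM), had the lowest mean of the 9 genes in its group. By gene, the correlation with the endothelial sum ran from 0.53 for *Ifit2* to 0.88 for *Isg15*. The part that cells other than satellite cells had in the levels of the 9 genes was not tested.

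With the log2 endothelial sum as a covariate in the 4-group edgeR fit, a setting added after the data were seen, 5 of the 9 genes were called lower in activated cells of each genotype, with log2 fold changes of -1.54 to -3.23 in WT and -1.22 to -3.98 in KO. These were *Irf1*, *Irf7*, *Stat2*, *Isg15* and *Oasl2*, and *Ifit1* no longer passed (-0.80, adjusted p = 0.238 in WT and -0.95, adjusted p = 0.185 in KO). The same fit called 5953 of all 25771 genes tested in WT and 6258 in KO, in either direction. Calls lower alone were not counted over all genes in that fit, so these numbers are not a matched share for the 5 genes. The median log2 fold change of the 9 genes was -1.54 in WT and -1.22 in KO, beside -0.86 and -0.79 for all genes. Of the 9, 5 in WT and 6 in KO lay below the median of all genes. *Rsad2* turned to 0.69 in KO (adjusted p = 0.349) and stood at -0.86 in WT (adjusted p = 0.237). The SE of the KO effect in quiescent cells ranged from 0.22 to 0.32, against 0.27 to 0.47 without the covariate, and none of the 9 genes was called. The covariate followed the 9 genes in these same libraries, so a smaller SE comes with that choice. *Irf7* had the largest quiescent value under it (0.44, SE 0.22, adjusted p = 1). In activated cells *Oasl2* (1.92, SE 0.50, adjusted p = 0.148) and *Rsad2* (1.80, SE 0.59, adjusted p = 0.308) were the highest and were not called.

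**Figure D4:**
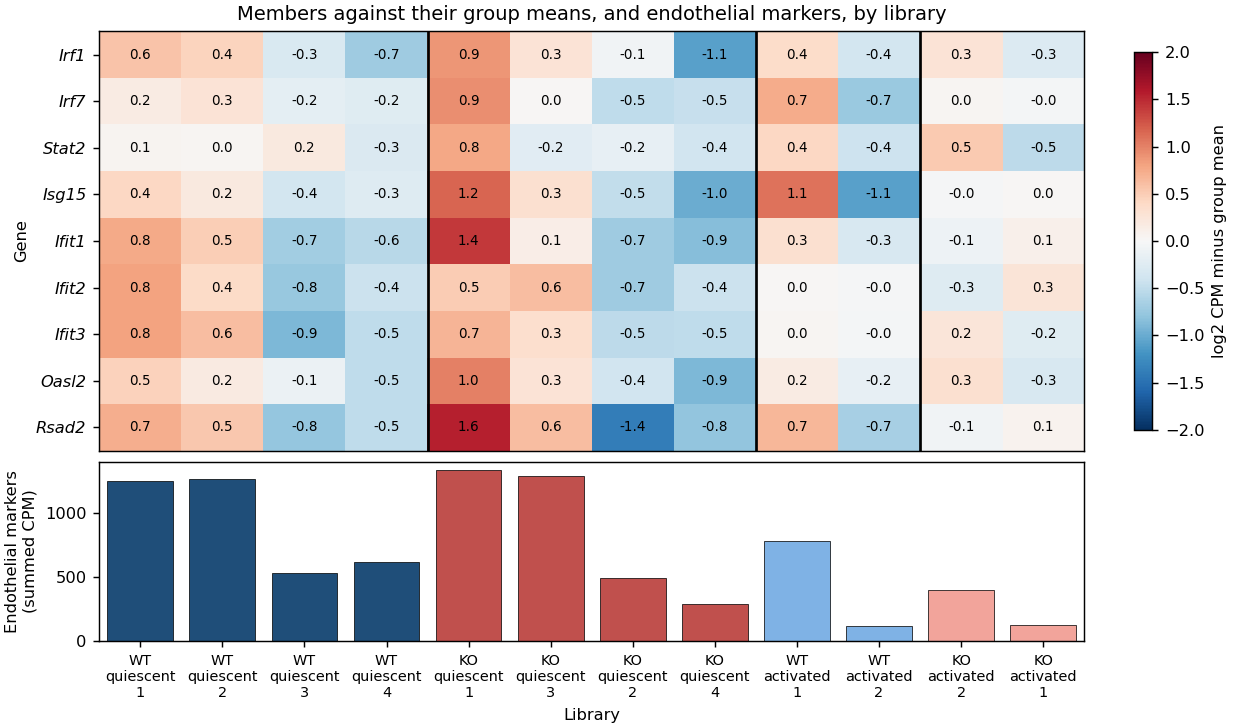
Log2 CPM of the 9 genes minus the group mean in each library (top, red above and blue below the mean, libraries ordered within groups by their average) and the summed CPM of 9 endothelial markers in the same libraries (bottom). The 4 quiescent libraries with endothelial sums of 1252 to 1334 CPM are those in which the 9 genes are on average above their group means.

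The genes outside the set whose library pattern was most like the mean of the 9, out of 13997 genes whose log2 CPM averaged more than 1, were *Syt7* (r = 0.98), *Dab2ip* (0.97), *Cdc42ep2* (0.97), *Cdc42ep3* (0.97) and *Pde4c* (0.97), over 12 libraries with group means subtracted. None of these 5 belongs to the interferon lists used here, but listed genes stood close behind, at ranks 11 (r = 0.96) and 19 (r = 0.95). The activation changes of the 5 genes differed, from -0.10 (*Dab2ip*) to -5.29 (*Pde4c*) on the log2 scale in WT.

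The rest of the interferon pathway was read from lists of other genes, of which 109 were tested. The lists overlap in *Irf9* and *Usp18*. In WT, 63 of the 109 were called lower and 3 higher with activation, and in KO 68 were lower and 4 higher. Over all genes tested, 16.5% were called lower and 9.65% higher in WT, and 18.5% and 11.1% in KO. Between KO and WT in either state, and for the difference of the KO effect, none of the 109 listed genes was called. This held for edgeR and for any other setting run. In these comparisons 0, 9 and 7 of the 109 had an unadjusted p under 0.05 (edgeR), beside 448, 2158 and 1699 of all 25771 genes tested. Their median log2 fold change with activation was -1.8 in WT and -1.84 in KO, and -1.67 and -1.74 with the 7 and 5 genes that had 0 activated counts set at their bound, beside -0.92 and -0.96 for all genes.

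The partner of STAT2 and a feedback inhibitor of the receptor were lower in activated cells. *Irf9*, the DNA-binding part of the complex, went from 145 ± 26.5 CPM (SD, n = 4) to 16.5 ± 10.4 CPM (SD, n = 2) in WT and from 158 ± 79.4 to 14.4 ± 0.00811 CPM in KO (log2 fold changes -3.08 and -3.45, adjusted p = 2.49e-05 and 7.93e-06, edgeR). *Usp18*, whose product removes ISG15 from proteins and blocks the receptor, fell by 3.77 in WT (adjusted p = 0.0103) and by 3.15 in KO (adjusted p = 0.00784), at 0 to 5 counts in an activated library.

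Of 11 receptor and JAK-STAT genes, 5 were lower and 1 higher in each genotype. The riser was *Ifngr2*, a chain of the interferon gamma receptor, at 9.64 ± 2.2 CPM (SD, n = 4) in WT quiescent and 40.0 ± 10.9 CPM (SD, n = 2) in WT activated libraries (log2 fold change 2.05 in WT and 1.29 in KO, adjusted p = 2.21e-05 and 0.00193, edgeR). Of 10 other IRF genes, 3 were lower and 1 higher in each genotype, the latter being *Irf2bp1*, a corepressor that binds IRF2 (34.5 ± 1.61 CPM and 191 ± 37.4 CPM in WT, log2 fold change 2.46, and 1.97 in KO). Of 15 nucleic acid sensors and adaptors, 7 were lower and 1 higher in WT and 7 were lower and 2 higher in KO. *Traf3*, an adaptor upstream of IRF3 and IRF7, was among those that rose (1.38 in WT and 1.18 in KO). The share of genes called higher in each of these lists was near that over all genes tested, 9.65% in WT and 11.1% in KO.

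Effector lists were lower as a rule, beside 16.5% of all tested genes called lower in WT and 18.5% in KO. Of 43 antiviral effectors 33 were lower in WT and 36 in KO with none higher, of 13 guanylate-binding proteins and IRG GTPases 8 were lower in each, and of 5 ISG15 conjugation genes 3 were lower in WT and 4 in KO. Feedback inhibitors were lower for 5 of 6 in WT and 4 of 6 in KO. *Socs3*, which is also induced by cytokines other than interferon, had the highest level among the listed genes named here, at 1214 ± 176 CPM (SD, n = 4) in WT quiescent and 53.2 ± 0.966 CPM (SD, n = 2) in WT activated libraries, and fell by 4.51 in WT and 5.00 in KO (adjusted p = 4.88e-08 and 2.08e-08, edgeR). *Oas1b* and *Ddx60*, antiviral genes, were named for their WT change among genes called in both genotypes (-5.53 and -4.76 in WT, -3.54 and -2.52 in KO) and stood at no more than 1 count in a WT activated library.

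Other genes of the IFIT and OASL families were low. *Ifit1bl1* was called in neither genotype, and *Ifit1bl2*, with 0 counts in both KO activated libraries, was at least 2.93-fold lower in KO activated than quiescent cells against a floor of 3 counts over the group. *Oasl1*, which lies beside *Oasl2*, had 5.78 ± 1.70 CPM (SD, n = 4) and 8.72 ± 8.0 CPM (SD, n = 2) in WT quiescent and activated libraries and passed in KO (-1.73, adjusted p = 0.0486, edgeR) but not in WT (0.67, adjusted p = 0.352). The difference between genotypes was not called for it (adjusted p = 0.601) or for *Ifit3b*, *Ifit1bl1* or *Ifit1bl2*.

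Interferon genes themselves were barely counted. The 21 ligand genes had 769 counts together in the 8 quiescent libraries and 45 in the 4 activated libraries. These sums are not scaled for depth, which was 12775593 to 23717013 counts in a quiescent and 3172164 to 5427280 counts in an activated library. None of the ligand genes exceeded 3.76 CPM in any library, and only 4 could be tested, of which 1 was called lower in each genotype. *Ifna14* accounted for it, with 79 counts in WT and 96 in KO quiescent libraries and 0 counts in activated ones, at least 2.88-fold lower in WT and 3.35-fold lower in KO against a floor of 3 counts over the group.

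**Figure D5:**
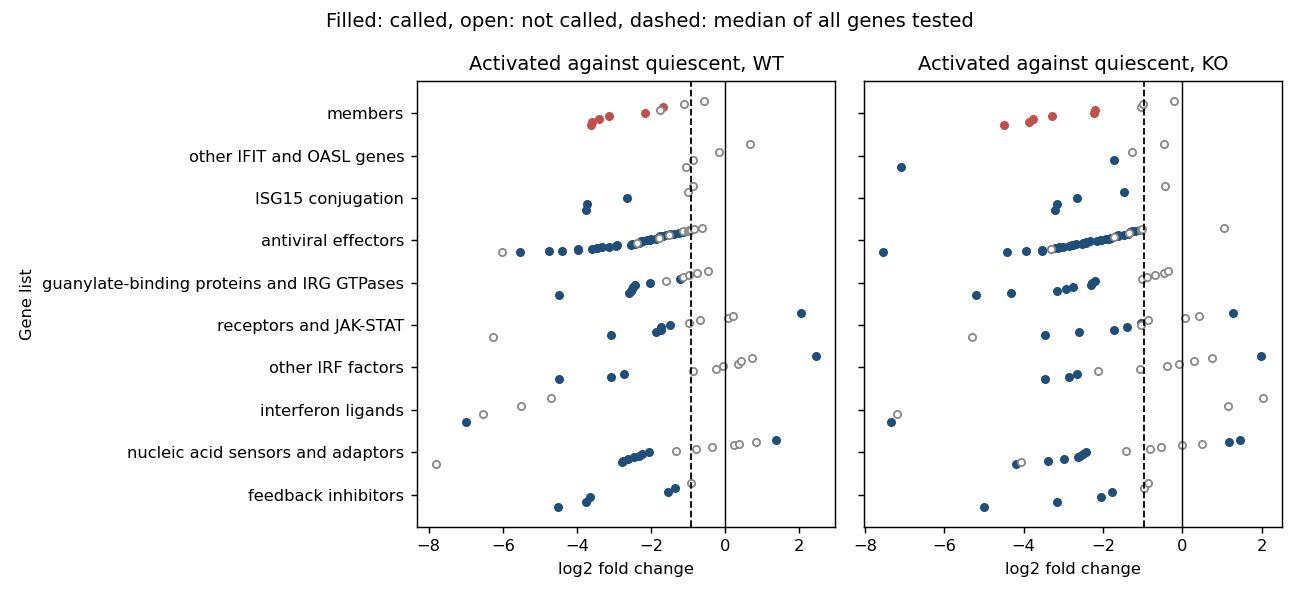
Log2 fold changes of activated against quiescent cells in WT (left) and KO (right) for the 9 genes (red) and the other interferon genes by list (blue), with filled points for calls, open points for no call and a dashed line at the median of all genes tested (-0.92 and -0.96). Most effector genes lie left of the dashed line, and 3 genes in WT and 4 in KO are filled right of 0. Points beyond about -6 belong to genes with few or no counts in activated cells and depend on the default prior count of the edgeR fit.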

How the data were processed

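RNA-seq was done on 12 libraries of sorted Pax7-ZsGreen+ cells in 4 groups. The authors trimmed reads with Trim Galore 0.6.0, mapped them to GRCm38.p6 with STAR 2.7.2a and assigned them to GENCODE genes with Rsubread. The deposited table holds unnormalized counts, and the deposited FPKM are 1 value a group, made by a step not given in the sources used here. How multi-mapping reads and strand were treated is not given either.

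CPM were computed with TMM-scaled library sizes, and a prior count of 2 was added for log2 CPM. Fold changes of the edgeR fit kept its default prior count. Genes passing filterByExpr were fitted in 1 model of 4 groups with edgeR 4.0.16 (R 4.3.3) and tested by the quasi-likelihood F test with Benjamini-Hochberg adjustment over 25771 genes. Each SE is the absolute log2 fold change divided by the square root of F. The scripts were tested on simulated data. The depth, 12775593 to 23717013 counts in quiescent and 3172164 to 5427280 in activated libraries, left 5 to 178 counts of each of the 9 genes in an activated library, which limits the precision there.

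Alternatives were DESeq2 1.42.0, its size factors in edgeR, removal of *CT010467.1*, 2 other filters on low counts, the adjusted p alone, a fit on the compared libraries, a replicate block, each library left out, and, added after the data were seen, the endothelial marker level as a covariate. Promoter windows came from RefSeq (GRCm38.p6), gene models from GENCODE M21 on the same build, and transcripts with at least 90% identity to one of the 9 over 300 bases were sought with blastn 2.17.0, apart from the gene lists.

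The 9 genes, the 9 gene lists and 6 marker lists were chosen with earlier results of these data known. Named besides the 9 genes are *Irf9*, *Usp18*, the relatives *Ifit3b*, *Ifit1bl1*, *Ifit1bl2* and *Oasl1*, up to 4 listed genes at each end of the WT activation change among those called the same way in both genotypes, listed genes called between KO and WT (there were none), and the 5 genes most like the mean of the 9. A further gene of that rule is not reported here. *Cxcr4*, *Xist* and Y chromosome genes were read as checks.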

Additional observations from a re-analysis of the deposited data

Results flagged for a closer look

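1 value was set apart by Dixon's ratio of a gap to the range of its group. *Stat2* in KO quiescent library 1 (334 CPM) lay above the other 3 KO quiescent libraries (149 to 174 CPM) by a ratio of 0.867, over the critical value of 0.829 for 4 samples. The ratio was computed for 18 groups, 9 genes in each quiescent genotype, and chance marks about 1 in 20. The same library had the highest endothelial marker sum (1334 CPM), and the part of that in the *Stat2* level was not tested.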

How the results depend on the processing

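The number of the 9 genes called (6 in each genotype for activation, 0 elsewhere) stayed within 1.5 times under every setting run, from DESeq2 to leaving out each library. Signs turned only where values were small or uncalled. For KO against WT in quiescent cells, the replicate block gave -0.043 for *Ifit1*, 0.071 for *Ifit3* and -0.050 for *Irf1*, removal of *CT010467.1* gave -0.0095 for *Irf1*, and the endothelial covariate gave 0.098 for *Ifit3*. The covariate gave 0.015 for *Ifit2* and 0.16 for *Irf1* in activated cells. For the difference of the KO effect it gave 0.074 for *Irf1* and 0.25 for *Irf7*, and the replicate block gave 0.096 for *Irf7*. For activation it gave 0.16 for *Ifit3* in WT, and 0.56 for *Ifit3* and 0.69 for *Rsad2* in KO. The causes were not tested.

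Leaving out 1 library at a time turned signs as follows. KO against WT in quiescent cells ran from -0.25 to 0.49 for *Isg15*, -0.62 to 0.36 for *Ifit1*, -0.51 to 0.055 for *Ifit2*, -0.27 to 0.27 for *Ifit3*, -0.32 to 0.26 for *Irf1*, -0.016 to 0.55 for *Irf7*, -0.090 to 0.36 for *Stat2*, -0.16 to 0.48 for *Oasl2* and -0.46 to 0.53 for *Rsad2*. In activated cells it ran from -2.04 to 0.17 for *Isg15*, -0.52 to 0.037 for *Ifit2*, -0.44 to 0.26 for *Irf1* and -0.20 to 1.3 for *Irf7*. The difference ran from -0.84 to 0.13 for *Ifit1*, -0.27 to 0.32 for *Ifit2*, -0.44 to 0.25 for *Irf1* and -0.58 to 0.92 for *Irf7*, and KO activation from -0.48 to 0.045 for *Ifit3*. A group left with 1 library is assumed there to vary like the others.

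Whether replicate numbers pair the samples was not settled by these libraries. Deviations of same-numbered quiescent WT and KO libraries correlated at 0.22, 0.17, -0.22 and 0.55 over genes. KO quiescent libraries 1, 2 and 4 correlated best with the WT library of their number, and KO library 3 and WT libraries 1 to 3 did not. Same-numbered activated libraries correlated at -0.04. The 2 activated libraries of a genotype deviate by equal amounts in opposite directions, so that value cannot decide the question. With the replicate block *Ifit2* passed in both genotypes (log2 fold change -1.31 in WT and -1.26 in KO) and *Rsad2* in WT (-2.30), and no other call among the 9 genes changed. With no filter on low counts *Ifit2* and *Rsad2* passed in both genotypes, and *Rsad2* passed in WT in the fit on the compared libraries (adjusted p = 0.0149).

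Counts over all genes moved more. KO against WT in quiescent cells gave 4 calls, 47 with no filter and 12 without KO quiescent library 3 (3 to 5 without any other). In activated cells it gave 13 calls, 332 with no filter, 145 by DESeq2, 23 with the block or the covariate, 8 with DESeq2 size factors, 3 in the compared libraries and 2 with a mean count of at least 10, and 0 (without WT activated library 1 or KO activated library 2) to 98 (without WT activated library 2) when 1 library was left out. The difference gave 0, 170 with no filter, 45 by DESeq2, 14 with the covariate, 6 with the block, 1 without *CT010467.1* and up to 31 (without WT activated library 2) when 1 library was left out. Depth limits the activated values, where 2 libraries a genotype and 5 to 178 counts a gene were measured.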
